A study of Mus musculus with 2 samples.

Results

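The desmosome genes described here were 10 genes chosen by name: the desmosomal cadherins *Dsg2*, *Dsc2* and *Dsc3*, the plaque proteins *Jup*, *Pkp1*, *Pkp2*, *Pkp3* and *Dsp*, and the associated genes *Perp* and *Dst*. All 10 were listed among the 25810 genes with a symbol in the deposited expression files. Transcripts of mammary epithelial cells (MECs) were counted in 1 library from wild type (WT) mice and in 1 library from *Igfbp7*-/- mice, both taken from inguinal glands on lactation day 3. The cells had been depleted of lineage positive cells (leukocytes, endothelial cells and erythroid cells) with magnetic beads, and polyadenylated RNA was sequenced on a SOLiD instrument. The *Igfbp7*-/- mice carry a germline deletion of exon 1 in every cell. The sample labels give C57BL/6 as the background of both genotypes, whereas the methods state CD1, and neither says how many animals went into a library. With 1 library per genotype the spread between animals could not be measured and no difference was tested. The intervals given are 95% exact intervals that cover the sampling of reads only.

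The desmosome is the spot-like junction through which neighbouring epithelial cells link their keratin filaments. Its cadherins, the desmogleins and desmocollins, bind across the gap between cells. Inside the cell their tails hold plakoglobin (*Jup*) and a plakophilin, and these in turn hold desmoplakin (*Dsp*), which binds the keratins. In the mammary gland desmosomes join the luminal secretory cells to one another and to the basal myoepithelial cells around them. Plakophilin 1 is best known from stratified epithelia, plakophilin 2 from simple epithelia and the heart, and plakophilin 3 from most epithelia.

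The libraries held 34327854 mapped reads in WT and 35016847 in *Igfbp7*-/-, of which 82.3% and 72.3% fell on listed genes. *Igfbp7* itself had 5224 reads in WT and 37 in *Igfbp7*-/-, in the direction of the labels. A level is given as RPM (reads per 1000000 mapped reads) for comparing a gene between libraries and as RPKM (RPM per kilobase of the gene length used by the authors) for comparing genes with one another. Ratios of *Igfbp7*-/- to WT were taken from RPM after adding 0.1 RPM, and a gene was called higher or lower at 1.5 times, the fold used in the study. The minimum was 1 RPM in at least one library, which 14026 genes passed. Of the desmosome genes 9 passed it, all with over 1 RPM in both libraries, and *Dsc3* did not.

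Transcripts of 4 desmosome genes were higher in the *Igfbp7*-/- library, those of 2 were lower and 3 lay within 1.5 times. The higher genes were *Pkp2*, *Dsc2*, *Pkp3* and *Dsg2*, with log2 ratios of 2.11, 1.70, 1.03 and 0.98. The lower genes were *Pkp1*, with a log2 ratio of -1.77, and *Perp*, with -1.43. *Dsp*, *Dst* and *Jup* had log2 ratios of -0.51, -0.38 and -0.23. In bulk RNA of this kind, fewer cells of a type and less of a transcript per cell cannot be told apart. The higher genes were thus 44.4% of the 9, while 21.4% of all genes past the minimum were higher by the same fold. The lower genes were 22.2% of the 9, beside 23.0% of all genes. The median log2 ratio of the 9 was -0.23 beside 0.03 for all genes, but 6 of the 9 genes lay more than 1.5 times to one side or the other. When RPM was computed over the reads on listed genes only, the median of all genes shifted by 0.19 on the log2 scale and the shares of all genes became 30.3% higher and 18.4% lower, with the same desmosome gene counts of 4 and 2.

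**Figure D1:**
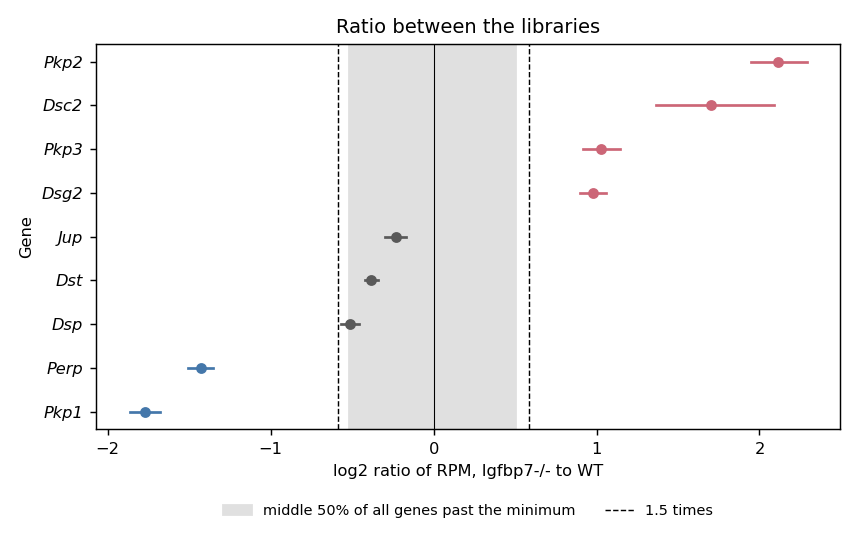
Log2 ratio of RPM in the *Igfbp7*-/- library to the WT library for the 9 desmosome genes past the minimum (points), with 95% exact counting intervals (lines). The grey band is the middle 50% of all 14026 genes and the dashed lines mark 1.5 times in either direction. *Pkp2*, *Dsc2*, *Pkp3* and *Dsg2* lie to the right of the dashed lines and *Pkp1* and *Perp* to the left, with *Dsp*, *Dst* and *Jup* between them.

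The desmosomal cadherins were first compared by level. *Dsg2*, on chromosome 18, encodes desmoglein 2, the desmoglein of simple epithelia. The WT library held 3788 reads of *Dsg2* (110.3 RPM) and the *Igfbp7*-/- library 7621 (217.6 RPM). The ratio was 1.97 and the log2 ratio 0.98 (0.90 to 1.06). *Dsc2* encodes desmocollin 2, its usual partner. For *Dsc2*, 170 reads were counted in WT (4.95 RPM) and 572 in *Igfbp7*-/- (16.3 RPM). The ratio was 3.25 and the log2 ratio 1.70 (1.37 to 2.09). *Dsc3*, which encodes a desmocollin of stratified epithelia, had 14 reads in each library (0.41 RPM in WT and 0.40 RPM in *Igfbp7*-/-). Its counting interval, -1.77 to 1.71 on the log2 scale, was the widest of the 10 genes, and a difference within it was not detectable at this depth.

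Per length, *Dsg2* made up nearly all of the measured cadherin transcript in both libraries. It held 94.1% of the summed RPKM of *Dsg2*, *Dsc2* and *Dsc3* in WT and 91.0% in *Igfbp7*-/-, while *Dsc2* held 5.48% and 8.86%. The sum itself was 20.5 RPKM in WT and 41.8 RPKM in *Igfbp7*-/-, which is 2.04 times as high. The RPKM of *Dsc2* relative to *Dsg2* was 0.058 (0.046 to 0.072) in WT and 0.097 (0.086 to 0.110) in *Igfbp7*-/-. A ratio of this kind is taken within a library, so the total by which the library was scaled drops out of it.

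The other desmosomal cadherins of the mouse were barely detected. *Dsg1c*, *Dsg4* and *Dsc1* had no reads in either library, which on read pairs allows a level of up to 0.215 RPM for WT, or 0.211 RPM for *Igfbp7*-/-. *Dsg3* had 12 reads in WT and 10 in *Igfbp7*-/-, *Dsg1b* had 4 and 0, and *Dsg1a* had 2 and 1. The desmoglein 1 genes are near-identical copies, so reads between them may have been divided or dropped. *Cdsn*, the corneodesmosome protein of the cornified epidermis, had 4 reads in WT and 6 in *Igfbp7*-/-. The desmosomal cadherins measured in these MEC libraries were therefore *Dsg2* and, at a much lower level, *Dsc2*.

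The plakophilins are the armadillo repeat proteins that cluster the cadherins and recruit desmoplakin, and they held both the highest and the lowest ratio of the desmosome genes. *Pkp1* (chromosome 1, 137767972 to 137815784, minus strand, NCBIM37 build) led this family in WT. Reads of *Pkp1* numbered 8108 in WT, or 236.2 RPM, and 2423 in *Igfbp7*-/-, or 69.2 RPM. Its level in WT was 3.41 times that in *Igfbp7*-/-, a log2 ratio of -1.77 (-1.86 to -1.68), and 5.28% of the genes past the minimum had a lower ratio. *Pkp2* (chromosome 16, 16213411 to 16272805, plus strand) had the fewest reads of the 3 genes in WT. The WT library held 695 reads of *Pkp2* (20.2 RPM) and the *Igfbp7*-/- library 3079 (87.9 RPM). This was the highest ratio of the 9 genes, 4.33 times and 2.11 on the log2 scale (1.95 to 2.29), and 1.34% of the genes past the minimum had a higher one. *Pkp3* (chromosome 7, 148264117 to 148276409, plus strand) was higher in *Igfbp7*-/- as well. For *Pkp3*, 1946 reads were counted in WT (56.7 RPM) and 4054 in *Igfbp7*-/- (115.8 RPM). The ratio was 2.04 and the log2 ratio 1.03 (0.92 to 1.14).

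Added together, the 3 plakophilins stood at nearly the same level in both libraries, but in a different mix. Their summed RPKM was 79.0 in WT and 85.4 in *Igfbp7*-/-, a ratio of 1.08. In WT *Pkp1* was the leading plakophilin with 66.6% of this sum, followed by *Pkp3* with 24.5% and *Pkp2* with 8.86%. In *Igfbp7*-/- *Pkp3* led with 46.3%, *Pkp2* held 35.6% and *Pkp1* 18.1%. The RPKM of *Pkp2* relative to *Pkp1* was 0.133 (0.119 to 0.149) in WT and 1.97 (1.83 to 2.13) in *Igfbp7*-/-, which differ 14.8 times. For *Pkp3* relative to *Pkp1* the values were 0.368 (0.343 to 0.395) and 2.57 (2.39 to 2.76), which differ 6.97 times. *Pkp2* relative to *Pkp3* went from 0.361 (0.319 to 0.410) to 0.769 (0.719 to 0.822). These intervals do not overlap, and they describe 2 libraries rather than 2 genotypes.

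**Figure D2:**
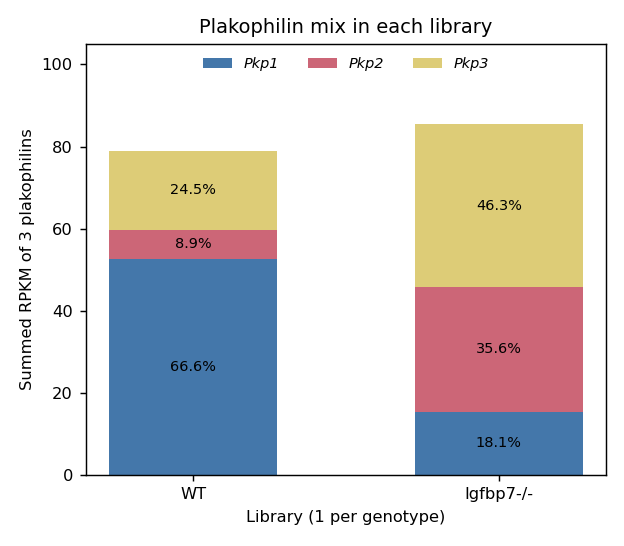
Summed RPKM of *Pkp1*, *Pkp2* and *Pkp3* in each library, with the percentage that each gene holds of the sum written in its segment (1 library per genotype, no error bars). The bars reach 79.0 RPKM in WT and 85.4 RPKM in *Igfbp7*-/-, and *Pkp1* takes 66.6% of the first and 18.1% of the second.

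*Pkp4*, a relative found at adherens junctions as well as desmosomes, was lower in *Igfbp7*-/-. Reads of *Pkp4* numbered 6974 in WT, or 203.2 RPM, and 4421 in *Igfbp7*-/-, or 126.3 RPM. Its log2 ratio was -0.69, which is lower by more than 1.5 times. With *Pkp4* included, the summed RPKM of the family was 122.8 in WT and 112.6 in *Igfbp7*-/-, and *Pkp1* held 42.9% and 13.7% of it.

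The plaque proteins that every desmosome holds differed less. *Jup* (chromosome 11, 100230272 to 100259077, minus strand) encodes plakoglobin, which also binds classical cadherins at adherens junctions. The WT library held 8176 reads of *Jup* (238.2 RPM) and the *Igfbp7*-/- library 7101 (202.8 RPM). The log2 ratio was -0.23 (-0.30 to -0.17). *Dsp* (chromosome 13, 38243197 to 38290446, plus strand) encodes desmoplakin. For *Dsp*, 12671 reads were counted in WT (369.1 RPM) and 9070 in *Igfbp7*-/- (259.0 RPM). Its level in WT was 1.42 times that in *Igfbp7*-/-, a log2 ratio of -0.51 (-0.57 to -0.46), just inside the fold of 1.5. Both intervals leave out a ratio of 1 by the sampling of reads, and neither gene was called.

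The proportions of *Dsg2* to the plaque linkers differed between the libraries. The RPKM of *Dsg2* relative to *Dsp* was 0.500 (0.475 to 0.527) in WT and 1.41 (1.35 to 1.47) in *Igfbp7*-/-. Relative to *Jup* it was 0.261 (0.247 to 0.276) in WT and 0.604 (0.577 to 0.633) in *Igfbp7*-/-. *Jup* relative to *Dsp* moved less, from 1.92 (1.84 to 1.996) to 2.33 (2.23 to 2.43). *Jup* relative to β-catenin (*Ctnnb1*), the plaque protein that takes its place at adherens junctions, was 0.745 (0.716 to 0.775) in WT and 0.803 (0.769 to 0.838) in *Igfbp7*-/-.

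*Perp* (chromosome 10, 18564877 to 18576879, plus strand) encodes a tetraspan membrane protein that desmosomes of stratified epithelia need, and it is a known target of p63 and p53. Reads of *Perp* numbered 10394 in WT, or 302.8 RPM, and 3935 in *Igfbp7*-/-, or 112.4 RPM. Its level in WT was 2.69 times that in *Igfbp7*-/-, a log2 ratio of -1.43 (-1.51 to -1.35), and 7.99% of the genes past the minimum had a lower one. Relative to *Dsp*, the RPKM of *Perp* was 4.14 (3.99 to 4.29) in WT and 2.19 (2.08 to 2.31) in *Igfbp7*-/-.

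*Dst* (chromosome 1, 33965125 to 34365495, plus strand) encodes dystonin, a large plakin. Its short epithelial form, BPAG1e, ties keratins to hemidesmosomes, the junctions with the basement membrane, and longer forms serve nerve and muscle. It had the most reads of the 10 genes, 23250 (677.3 RPM) in WT and 18195 (519.6 RPM) in *Igfbp7*-/-. Its log2 ratio was -0.38 (-0.42 to -0.34). The deposited count does not separate the forms. The gene length behind the RPKM was 23319 bp, within 34 bp of the long transcript Dst-206 of the GENCODE M1 annotation. RefSeq lists starts of *Dst* at different places, and 60 bases around 2 of them are shown because the count is given for the gene as a whole. The bases are from the GRCm38.p6 build of chromosome 1 (plus strand, with the start base in capitals). Whether reads from both starts enter the count cannot be told from the sources used here. The first window is chr1:34011545-34011604 and the second chr1:34160210-34160269. Each full window of the table matched the NCBIM37 build once, and the start of the second lay 72 bp before the annotated start of Dst-201, whose transcript has 7936 bp and encodes 2611 residues, while the start of the first lay 230 bp before that of the long transcripts.
*Dst* upstream start: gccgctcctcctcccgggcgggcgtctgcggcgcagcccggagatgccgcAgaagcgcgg
*Dst* downstream start: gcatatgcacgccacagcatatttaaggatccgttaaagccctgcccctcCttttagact

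Ordered by RPKM, the genes took different places in the libraries. In WT *Perp* was highest with 159.3 RPKM, followed by *Jup* (73.8), *Pkp1* (52.7), *Dsp* (38.5), *Dst* (29.0), *Pkp3* (19.4), *Dsg2* (19.3), *Pkp2* (7.00), *Dsc2* (1.12) and *Dsc3* (0.077). *Pkp3* and *Dsg2* could not be told apart in WT, since their counting intervals (18.2 to 20.6 and 18.4 to 20.1 RPKM) overlapped. In *Igfbp7*-/- *Jup* was highest with 62.9 RPKM, followed by *Perp* (59.1), *Pkp3* (39.6), *Dsg2* (38.0), *Pkp2* (30.4), *Dsp* (27.0), *Dst* (22.3), *Pkp1* (15.4), *Dsc2* (3.70) and *Dsc3* (0.075). Here the intervals of *Jup* (60.8 to 65.0 RPKM) and *Perp* (56.5 to 61.8 RPKM) overlapped, as did those of *Pkp3* (37.9 to 41.3) and *Dsg2* (36.8 to 39.2). *Pkp1* went from the third place to the eighth, and *Pkp2* from the eighth to the fifth. The place of *Dst* rests on the length chosen for it: at the 7936 bp of Dst-201 the same reads would give 85.3 RPKM in WT and 65.5 RPKM in *Igfbp7*-/-. For each of the other 9 genes the length used lay within 183 bp of an annotated coding transcript. Antisense genes are annotated over *Dsg2*, *Dsp* and *Dst*, and the sources used here do not say whether counting used strand, so their counts may include antisense reads.

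**Figure D3:**
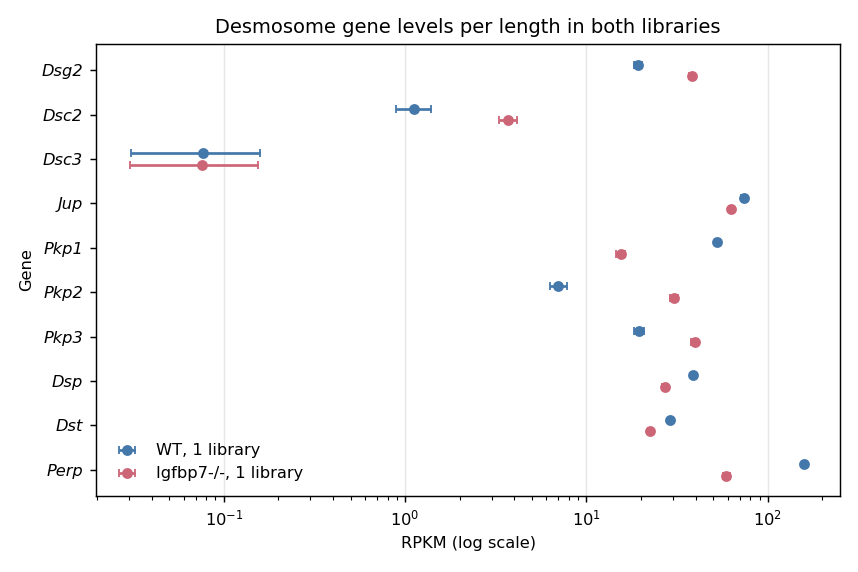
RPKM of the 10 desmosome genes on a log axis in the WT library (blue) and the *Igfbp7*-/- library (red), with 95% exact Poisson intervals of counting that are mostly narrower than the points. *Perp* is highest in WT at 159.3 RPKM and *Dsc3* lowest in both libraries, *Pkp1* lies further left in *Igfbp7*-/- and *Pkp2*, *Pkp3*, *Dsg2* and *Dsc2* lie further right.

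Markers of the epithelial layers also differed between the libraries. Of 10 basal and myoepithelial markers 9 were lower in *Igfbp7*-/- and 0 higher, beside 23.0% and 21.4% of all genes. Their median log2 ratio was -1.57, and their summed level was 3926 RPM in WT beside 1253 RPM in *Igfbp7*-/-. The exception was *Oxtr*, the oxytocin receptor, with 0.21. The values of the basal keratins *Krt5* and *Krt14* were -1.67 and -1.13, and that of *Trp63*, which encodes the basal cell regulator p63, was -1.99. The 9 lower markers ran from -2.93 to -1.08, and *Pkp1* and *Perp*, at -1.77 and -1.43, lay within that range. It is not particular to basal markers. The medians of leukocyte (-1.60), endothelial (-1.30) and adipocyte markers (-2.05) lay within it too. Those of fibroblast (-0.79), Schwann cell (-0.55), skeletal muscle (-1.02) and epidermal keratinocyte markers (0.70) did not. The range of all 10 basal markers, which reaches up to 0.21 by *Oxtr* alone, also held *Dsp* (-0.51), *Dst* (-0.38) and *Jup* (-0.23). Within a library, the RPKM of *Pkp1* relative to *Krt5* was 0.199 (0.192 to 0.206) in WT and 0.185 (0.173 to 0.198) in *Igfbp7*-/-, and that of *Perp* relative to *Krt5* was 0.602 (0.582 to 0.623) and 0.710 (0.671 to 0.752). Other basal markers would give other proportions. Both genes had lower log2 ratios than *Krt14* and *Krt17* (-1.08), and higher ones than *Acta2* (-2.21) and *Cnn1* (-2.93).

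Luminal markers did not move as 1 block. Of 11 luminal and secretory markers 5 were higher in *Igfbp7*-/-, 3 were lower and 3 lay within 1.5 times. These were 45.5% higher and 27.3% lower, beside 21.4% and 23.0% of all genes. The 3 lower ones were the milk protein genes *Csn2*, *Wap* and *Lalba*, and all 11 summed to 68734 RPM in WT, beside 27482 RPM in *Igfbp7*-/-. Without those 3, a split not set in advance, the 8 others together had 1515 and 3457 RPM. Most of that rise came from *Krt8* (268.1 and 789.0 RPM) and *Krt18* (250.4 and 1174 RPM). *Elf5*, also among the 8, had 137.3 RPM in WT and 95.9 RPM in *Igfbp7*-/-, a log2 ratio of -0.52. The luminal keratins *Krt8* and *Krt18* had log2 ratios of 1.56 and 2.23, and *Epcam* and *Cdh1*, epithelial genes of the same marker list, had 0.51 and 0.38. The RPKM of *Dsg2* relative to *Cdh1*, the cadherin of adherens junctions, was 0.243 (0.231 to 0.256) in WT and 0.369 (0.354 to 0.383) in *Igfbp7*-/-, so *Dsg2* was also higher against this epithelial gene. *Pkp2* relative to *Krt8* was 0.047 (0.042 to 0.053) and 0.070 (0.066 to 0.073). This depends on the keratin taken as reference. *Pkp2*, at a log2 ratio of 2.11, lay above *Krt8* and *Krt19* (1.47) but below *Krt18* and *Krt7* (2.90). *Dsg2*, at 0.98, lay below each of these keratins. When all ratios were taken relative to *Cdh1*, 4 desmosome genes were higher and 5 lower, the added ones being *Dsp*, *Jup* and *Dst*. Relative to *Epcam*, 2 were higher (*Pkp2* and *Dsc2*) and the same 5 were lower, with *Pkp3* at 0.52 and *Dsg2* at 0.47. Over all genes these references gave 10.3% higher and 37.7% lower for *Cdh1*, and 7.84% and 44.2% for *Epcam*.

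Markers of most other cell types also had lower summed levels in the *Igfbp7*-/- library. Transcripts of such cells remained after the depletion, so the levels given here are those of a mixed preparation. In WT the endothelial *Cdh5* had 583.7 RPM and the fibroblast *Col3a1* 4670 RPM, beside 349.2 RPM of *Cdh1*. In *Igfbp7*-/- these genes had 183.5, 1950 and 454.8 RPM. Leukocyte markers were lower in 7 of 8 listed genes (145.9 RPM summed in WT and 48.9 RPM in *Igfbp7*-/-), endothelial markers in 4 of 5 (1055 and 352.3 RPM) and fibroblast markers in 4 of 6 (9060 and 4582 RPM). Of 3 adipocyte markers past the minimum 3 were lower (553.9 and 175.5 RPM summed over the list). Beside all of these counts, 23.0% of all genes past the minimum were lower. Markers of Schwann cells and skeletal muscle, tissues known for longer forms of *Dst*, summed to 134.8 and 5.91 RPM in WT and to 151.4 and 2.60 RPM in *Igfbp7*-/-. Markers of epidermal keratinocytes, a cell type that also makes *Pkp1* and *Perp*, summed to 6.00 RPM in WT, beside 16.1 RPM in *Igfbp7*-/-. *Ivl*, *Flg* and *Dsc1* of that list were at 0 in both libraries, and *Sbsn* had 2.91 RPM in WT, beside 14.4 RPM in *Igfbp7*-/-. The part of the epithelial layers and of these other cell types in the differences of the desmosome genes was not tested.

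The keratins that desmosomes hold differed in both directions. Of 9 keratin genes 4 were higher and 5 lower, with none within 1.5 times. The higher ones were those of luminal cells, *Krt7* (2.90), *Krt18* (2.23), *Krt8* (1.56) and *Krt19* (1.47 on the log2 scale), whose summed level was 641.0 RPM in WT beside 2383 RPM in *Igfbp7*-/-. The lower ones were *Krt15* (-3.75), *Krt6a* (-2.38), *Krt5* (-1.67), *Krt14* (-1.13) and *Krt17* (-1.08), which summed to 1175 and 432.4 RPM. The share of these keratins past 1.5 times was thus 44.4% higher and 55.6% lower, beside 21.4% and 23.0% of all genes.

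The plakins, which tie filaments to junctions, were looked at next to *Dsp* and *Dst*. Of 5 further plakin genes 3 were higher in *Igfbp7*-/- and 2 lay within 1.5 times, while 21.4% of all genes were higher. *Ppl* encodes periplakin, which lies at desmosomes and in the cornified envelope. The WT library held 3717 reads of *Ppl* (108.3 RPM) and the *Igfbp7*-/- library 7288 (208.1 RPM). The log2 ratio was 0.94. *Evpl* encodes its partner envoplakin. For *Evpl*, 40 reads were counted in WT (1.17 RPM) and 416 in *Igfbp7*-/- (11.9 RPM). The log2 ratio was 3.24. *Eppk1* encodes epiplakin, a keratin-binding protein. Reads of *Eppk1* numbered 617 in WT, or 18.0 RPM, and 4539 in *Igfbp7*-/-, or 129.6 RPM. The log2 ratio was 2.84. *Plec* (0.23) and *Macf1* (0.20) differed little. The RPKM of *Ppl* relative to *Dsp* was 0.448 (0.425 to 0.472) in WT and 1.23 (1.18 to 1.28) in *Igfbp7*-/-.

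Of the 10 further desmosome genes in the list, 3 passed the minimum, *Ppl* and *Evpl* as higher and *Pkp4* as lower. Among all genes past the minimum 21.4% were higher and 23.0% lower. The other 7 of the list are the cadherins and *Cdsn* given above, each with 12 reads or fewer in either library.

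The genes of the junction with the basement membrane differed in both directions. Of 8 hemidesmosome genes 4 were lower in *Igfbp7*-/-, 1 was higher and 3 lay within 1.5 times, with a median log2 ratio of -0.77. Of all genes 23.0% were lower and 21.4% higher. *Lama3* (-2.43), which encodes a chain of the laminin that hemidesmosomes bind, and the hemidesmosomal collagen gene *Col17a1* (-1.82) were among the lower ones. *Itgb4*, which encodes the β4 integrin subunit that BPAG1e and plectin attach to, had 1.55, while the integrin gene *Itga6* had -0.55, within 1.5 times. *Dst*, at -0.38, lay between these values.

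At the adherens junction most genes stayed within 1.5 times. Of 12 genes 2 were higher, 1 was lower and 9 lay within, with a median log2 ratio of 0.24. *Cdh1* (0.38), *Ctnnb1* (-0.34) and *Tjp1* (0.39) were among the 9. *Mllt4*, which encodes afadin, had 2.02, and *Cdh3*, which encodes the basal P-cadherin, had -1.47. Thus 9 of 12 adherens junction genes lay within 1.5 times, beside 3 of the 9 desmosome genes (33.3%) and 55.5% of all genes past the minimum.

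**Figure D4:**
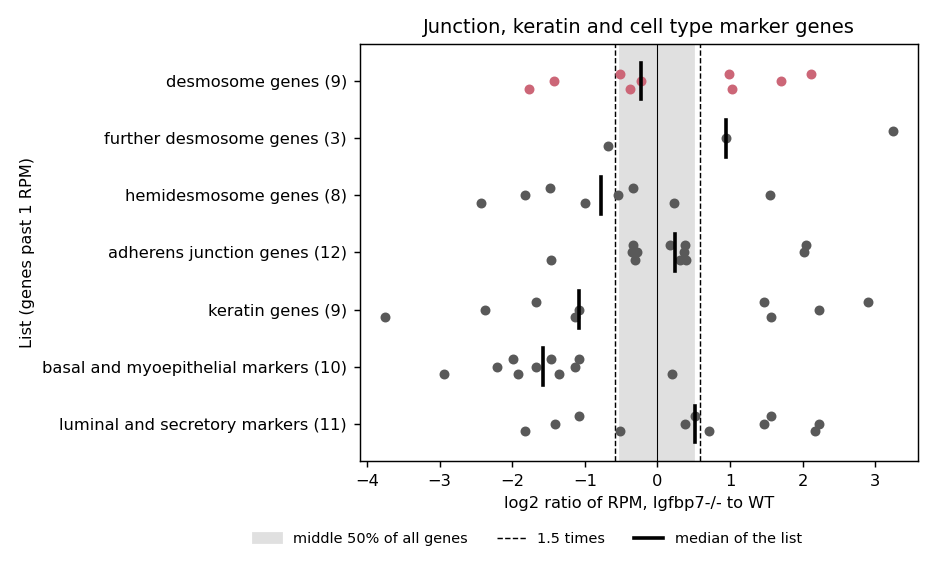
Log2 ratio of RPM in *Igfbp7*-/- to WT for the genes past 1 RPM of 7 lists, with the number of genes in parentheses, 1 point per gene and a black bar at the median of each list. The grey band is the middle 50% of all genes and the dashed lines mark 1.5 times. The desmosome genes (red) and the keratins lie on both sides of the band, with 3 desmosome genes between the dashed lines, 9 of 10 basal markers lie left of it, and 9 of 12 adherens junction genes lie between the dashed lines.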

How the data were processed

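Per the methods, the authors aligned paired-end SOLiD reads with the Bowtie pipeline of GeneSifter, allowing 3 mismatches, and removed ribosomal, mitochondrial and small nuclear RNA. The methods name a human build, whereas the submitters' processing notes name mm9, Bowtie 0.12.3 and SAMtools 0.1.15. The gene annotation and whether strand entered the counting are not given in the sources used here. An antisense gene overlaps *Dsg2*, *Dsp* and *Dst*. For each gene the deposited files hold the raw read count and its RPM, scaled by the authors to 1000000 mapped reads of the library. The deposited RPKM is that RPM per kilobase of one length per gene. Mapped reads off the listed genes enter this total, so they lower RPM.

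Rows were joined by symbol, leaving out 50 rows without one (0.049% and 0.067% of listed reads). Ratios used a pseudocount of 0.1 RPM and a minimum of 1 RPM. Among counts of 1 to 20, 75.8% in WT and 74.1% in *Igfbp7*-/- were even, so the exact Clopper-Pearson and Poisson intervals were computed on read pairs. They leave out the pseudocount and cover counting error only. One read was worth 0.029 RPM in both libraries. No test was made, and scripts were tested on simulated data. The members and gene lists were chosen with earlier results of these data known. Every member and every further desmosome gene is named, and from each junction, plakin, keratin and regulator list the 4 genes of at least 10 RPM furthest from 0, with preset genes of the epithelial layers; some genes that this rule names are not reported here. Other genes named were chosen after their values were seen. Alternatives were other pseudocounts, minimums, folds, RPKM, scaling (edgeR 4.0.16 TMM, DESeq2 1.42.0) and reference genes. Python 3.11.15, scipy 1.17.1 and R 4.3.3 were used. Gene coordinates are from GENCODE M1 (NCBIM37) and *Dst* start windows from RefSeq (GRCm38.p6).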

Additional observations from a re-analysis of the deposited data

How the results depend on the processing

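For the 9 members past the minimum 12 alternatives were recomputed, and for *Dsc3* only that without a minimum. The call of *Pkp1*, *Perp*, *Pkp2* and *Dsc2* was kept under each of the 12, and that of *Pkp3* and *Dsg2* under all but the scaling to *Epcam*. The 2 changes of the minimum leave each ratio as it was, so they could not move a value. The recomputed values numbered 109 over all members, called or not. No called member changed direction, but these alternatives could hardly reverse one. The largest shift of the median of all genes was -0.51, and the called member nearest to 0 was *Dsg2* with 0.98. The counts of 4 higher and 2 lower genes changed only with a reference gene, to 4 and 5 relative to *Cdh1* and to 2 and 5 relative to *Epcam*, and at a fold of 2 to 3 higher genes, when *Dsg2* (1.97 times) dropped out. These references shift the median of all genes by -0.38 and -0.51, and scaling to the listed genes shifts it by 0.19. The median log2 ratio of the members, -0.23, became -0.044 over the listed genes, -0.13 without a minimum, when *Dsc3* enters, -0.61 relative to *Cdh1*, -0.74 relative to *Epcam* and 0.98 without *Dst* and *Perp*. It is the value of 1 gene in a list that lies on both sides of 0, and it describes the list poorly. Requiring the whole counting interval past 1.5, an alternative added after seeing the data, gave the same counts. The share of all genes was computed neither for this alternative nor for the fold of 2, so those counts have no background beside them. Neither leaving out a replicate nor a test between genotypes could be made with 1 library each. No paired analysis was possible because each genotype has 1 library. Depth limited *Dsc3* and the other stratified cadherins, with 14 reads or fewer.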

Other observations

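Of 9 genes known to act on desmosome genes or on the turnover of their proteins 8 passed the minimum. Of these 2 were higher in *Igfbp7*-/-, 1 was lower and 5 lay within 1.5 times (62.5%, beside 55.5% of all genes), with a median log2 ratio of 0.10. *Trp63* was the lower one, with a log2 ratio of -1.99, from 2270 reads in WT (66.1 RPM) and 580 in *Igfbp7*-/- (16.6 RPM). *Grhl1*, a grainyhead-like transcription factor of epithelia, had 294 reads (8.56 RPM) and 615 reads (17.6 RPM), a log2 ratio of 1.03. *Prkca*, which encodes protein kinase Cα, a kinase known to weaken desmosomal adhesion, had 678 reads (19.8 RPM) and 1070 reads (30.6 RPM), a log2 ratio of 0.63. *Trp53*, which encodes p53, had a log2 ratio of -0.10. The sheddases *Adam10* (0.09) and *Adam17* (0.26), proteases that cut desmosomal cadherins, differed little. The RPKM of *Pkp1* relative to *Trp63* was 4.29 (4.01 to 4.58) in WT and 5.01 (4.41 to 5.72) in *Igfbp7*-/-.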
